A study of Mus musculus with 4 samples.

Results

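The genes described here are the numbered zinc finger protein genes that D2.OR cells expressed: every gene with a mouse symbol made of Zfp and a number alone, other than Zfp36, whose mean level over the 4 libraries was at least 1 FPKM (fragments scaled by transcript length and library size). There were 248 of them among 373 numbered Zfp genes and 48432 identifiers in the table, and 12747 genes of any kind reached the same level. The members were chosen by their mean FPKM, so that level is given as a description only. The fold change and its test were not part of that rule, but a gene low in one group could reach the limit through the other. Zfp36 encodes an RNA-binding protein with zinc fingers of another type and was left out by that rule. The 3 members just inside the limit were Zfp433 at 1.02, Zfp287 at 1.03 and Zfp995 at 1.04 mean FPKM, and the 3 genes just outside were Zfp619 at 0.984, Zfp72 at 0.946 and Zfp296 at 0.945.

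D2.OR is a line of mouse mammary cells labelled as hyperplastic alveolar cells at a stage before malignancy, and BORG is a long noncoding RNA. RNA was sequenced from 2 libraries of parental cells and 2 of cells expressing BORG, all grown for 7 days in 3D culture with Cultrex, a basement membrane extract. The labels give no vector, promoter or clone for the BORG cells, and the table calls the parental libraries Empty, so whether they carried an empty vector was not settled. Nothing says whether the 2 libraries of a group came from separate cultures, and p-values here speak for the spread of these libraries alone. BORG has no row under that name, and its own level was not analysed here.

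Most of these proteins carry runs of C2H2 fingers, short loops that each hold a zinc ion and read a few bases of DNA. A large class also carries a KRAB box, which recruits the corepressor Trim28 and with it enzymes that write repressive histone marks, and many genes of that class lie side by side in clusters that grew by duplication. Other members bind gene promoters, RNA or ribosomes, or pass ubiquitin or SUMO to other proteins.

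The promoters of 6 members are shown because they belong to the members with the 2 strongest rises and the strongest fall, with a member that lies near each of them on its chromosome and also changed. Each sequence runs 5′ to 3′ on the gene's strand, from 250 bases before the RefSeq start to 50 after it (RefSeq, GRCm38.p6). Zfp773 (chr7:7136706-7137005, minus strand) and Zfp772 (chr7:7209949-7210248, minus strand) are neighbouring members, Zfp420 (chr7:29859762-29860061, plus strand) and Zfp30 (chr7:29783718-29784017, plus strand) lie farther along the same chromosome in one cluster, and Zfp52 (chr17:21535289-21535588, plus strand) and Zfp53 (chr17:21488738-21489037, plus strand) are neighbouring members. Capitals mark matches, on either strand, to the TATA box letters TATAAA, the CCAAT box letters CCAAT, the GC box letters GGGCGG, the ETS letters CCGGAAG, the E box letters CACGTG and the longer run ACTACANNNNCCAG, in which N is any base.
Zfp773: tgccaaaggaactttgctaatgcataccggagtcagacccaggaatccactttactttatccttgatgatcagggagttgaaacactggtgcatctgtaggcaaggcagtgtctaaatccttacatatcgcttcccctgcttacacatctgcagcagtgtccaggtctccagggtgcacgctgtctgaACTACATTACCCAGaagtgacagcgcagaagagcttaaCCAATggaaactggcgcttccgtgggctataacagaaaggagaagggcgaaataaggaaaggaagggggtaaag
Zfp772: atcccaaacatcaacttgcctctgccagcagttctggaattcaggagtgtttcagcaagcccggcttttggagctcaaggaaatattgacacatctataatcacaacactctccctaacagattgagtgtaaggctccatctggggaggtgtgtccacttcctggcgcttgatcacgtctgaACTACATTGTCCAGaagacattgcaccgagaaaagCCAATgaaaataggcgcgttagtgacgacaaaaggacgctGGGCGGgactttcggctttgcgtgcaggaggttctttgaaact
Zfp420: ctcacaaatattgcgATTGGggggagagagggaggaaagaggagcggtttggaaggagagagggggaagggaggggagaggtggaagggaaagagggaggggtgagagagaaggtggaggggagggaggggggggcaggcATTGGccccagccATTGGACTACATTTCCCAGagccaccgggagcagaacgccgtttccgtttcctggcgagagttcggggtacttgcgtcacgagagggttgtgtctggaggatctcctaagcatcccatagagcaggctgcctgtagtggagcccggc
Zfp30: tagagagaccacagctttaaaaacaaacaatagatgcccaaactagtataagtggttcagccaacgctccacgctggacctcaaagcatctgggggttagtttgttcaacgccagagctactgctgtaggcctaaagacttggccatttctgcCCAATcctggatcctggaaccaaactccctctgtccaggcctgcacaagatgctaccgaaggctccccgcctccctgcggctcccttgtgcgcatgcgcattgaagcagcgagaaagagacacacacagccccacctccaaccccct
Zfp52: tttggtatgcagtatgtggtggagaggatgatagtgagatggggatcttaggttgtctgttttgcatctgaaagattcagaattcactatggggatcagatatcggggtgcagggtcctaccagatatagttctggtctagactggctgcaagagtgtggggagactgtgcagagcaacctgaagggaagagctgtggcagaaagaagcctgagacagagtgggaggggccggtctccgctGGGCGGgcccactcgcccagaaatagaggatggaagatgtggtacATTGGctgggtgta
Zfp53: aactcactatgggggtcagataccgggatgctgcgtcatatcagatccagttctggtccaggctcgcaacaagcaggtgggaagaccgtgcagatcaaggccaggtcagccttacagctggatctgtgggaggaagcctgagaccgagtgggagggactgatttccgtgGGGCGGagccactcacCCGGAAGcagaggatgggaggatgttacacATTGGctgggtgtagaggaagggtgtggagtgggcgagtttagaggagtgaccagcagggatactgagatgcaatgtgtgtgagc
The motif ACTACANNNNCCAG stood 62 bases before the start of Zfp773, as ACTACATTACCCAG, and 68 before that of Zfp772, as ACTACATTGTCCAG. Zfp420 held it as ACTACATTTCCCAG 92 bases before its start. The windows of Zfp52 and Zfp53 held CCAAT on the opposite strand and GGGCGG, and that of Zfp30 held CCAAT, but none of these 3 held ACTACANNNNCCAG.

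In the comparison of BORG-expressing with parental cells, 49 of the 248 genes rose and 46 fell, and the other 153 did not pass the test. The strongest rise was that of Zfp773, 2.97 ± 0.18 (SE) on the log2 scale, followed by Zfp52 at 2.03 ± 0.20, and the strongest fall was that of Zfp420, at -2.29 ± 0.18. The counts read as 19.8% higher and 18.5% lower, against 21.3% and 24.0% of all tested genes of at least 1 FPKM, and against 22.7% and 26.8% of the protein-coding ones. The share that rose was thus near the background and the share that fell was below it, with no test of either difference. A gene was called at an adjusted p under 0.05 in edgeR's quasi-likelihood test with Benjamini-Hochberg adjustment over 15116 tested genes. The plot of ranked changes gives all 248 members beside the distribution of all genes.

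**Figure D1:**
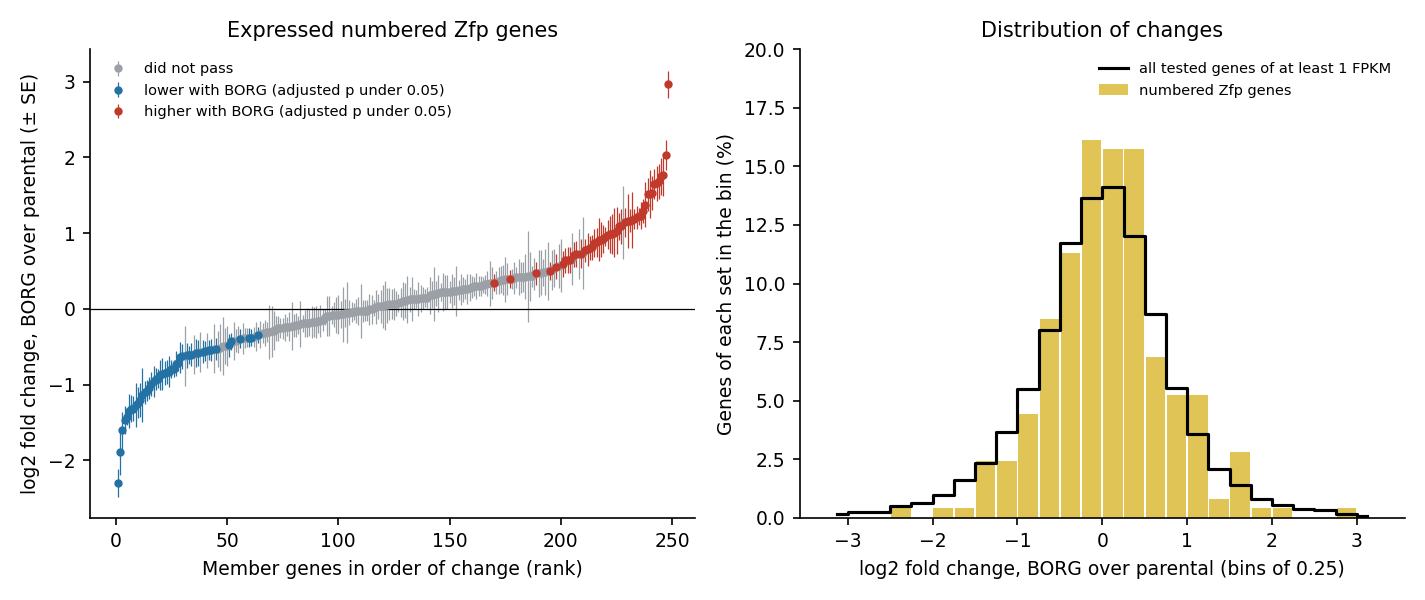
Left, the log2 fold change of each of the 248 expressed numbered Zfp genes, BORG over parental, in rank order with its standard error; colours give the edgeR call. Right, the share of these genes (bars) and of all tested genes of at least 1 FPKM (line) in each bin of log2 fold change; the quartiles of the members, -0.37 and 0.43, lie inside those of all genes, -0.49 and 0.47.

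The median log2 fold change of the 248 genes was 0.07, against 0.00 for all tested genes of at least 1 FPKM. It was -0.10 without parental replicate 1 and -0.04 without BORG replicate 1, so its sign rested on single libraries. The 2 parental libraries themselves differed by a median of 0.14 over the members and the 2 BORG libraries by 0.18. Among deposited FPKM values the median log2 ratio was -0.01 for the members and -0.01 for all genes. Changes of at least 2-fold that passed the test numbered 24 up and 15 down, or 9.68% and 6.05% of the members, against backgrounds of 8.80% and 10.2%. Of those up, Zfp85, Zfp395, Zfp40, Zfp13, Zfp442, Zfp341, Zfp775 and Zfp772 averaged under 1 FPKM in the parental libraries. Of those down, Zfp213 and Zfp202 averaged under 1 FPKM in the BORG libraries. These genes reached the limit only through the group where they were high.

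Levels of the members were low. Their median was 4.94 FPKM, against 10.4 FPKM for all genes over the limit, and the range ran from 1.02 to 79.9. Their summed FPKM came to 1858 and 2157 in the parental libraries and 1836 and 1905 in the BORG libraries, so the groups overlapped. BORG replicate 1 was the shallowest library, with 7900767 fragments assigned to genes against 24176438 to 30322679 in the others, and 7 members had under 20 fragments there. The median member had 154 fragments in that library and 394.5 to 549.5 in the others. No member was at 0 in any library. Of the 248, 18 averaged under 1 FPKM in one group, and reached the limit through the BORG libraries in 10 cases and the parental libraries in 8. Among the changed genes below, Zfp395, Zfp772, Zfp40, Zfp775 and Zfp85 passed the limit only through the BORG libraries. Their parental means were 0.657, 0.882, 0.639, 0.519 and 0.985 FPKM. Zfp213 and Zfp202 passed it only through the parental libraries, so a difference between groups came with the choice of all these genes. Of the 125 numbered Zfp genes below the limit, 30 had no fragment, 52 were tested, 10 rose and 1 fell. Among all 15116 tested genes 3001 rose and 3219 fell, and the 12324 of at least 1 FPKM held 2625 and 2956 of these. Tested genes of any kind below the limit thus also rose more often than they fell. The difference between them and the Zfp genes there was not tested.

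Keratins 8, 18 and 14 were abundant in every library, while Epcam and Cdh1 averaged 1.04 and 1.49 FPKM and Krt5 was near 0. Of the fibroblast markers, Pdgfra averaged 76.2 FPKM, Col1a1 20.1 and Pdgfrb 3.40, and Thy1 was at 0. Dcn, Col3a1, Col1a2 and Lum were near 0 as well, at means of 0.130, 0.0621, 0.0487 and 0.00929 FPKM. Among 7 leukocyte markers Cd68 alone averaged at least 1 FPKM, with summed FPKM of 4.86 to 5.71 in the parental and 8.24 to 10.9 in the BORG libraries, and none of 5 endothelial markers did. The epithelial sum was 1075 to 1150 in the parental and 966 to 1497 in the BORG libraries, and the fibroblast sum 108 to 113 and 80.3 to 98.2. The endothelial sum was 1.41 to 1.62 and 0.586 to 0.673. By the edgeR test described below, the epithelial markers Krt14, Cdh1, Krt19, Cldn4 and Krt8 rose, by 1.35, 1.12, 3.29, 2.09 and 0.28 on the log2 scale, and Krt18 fell by 0.69; Krt19 had 1 to 21 fragments a library and Cldn4 8 to 30. Cd68 rose by 0.73, Pdgfra fell by 0.46 and Pdgfrb by 0.77, and Ptprc, Kdr and Cdh5, all at low levels, fell by 2.74, 2.27 and 1.24. The part of any of these markers in the changes below was not tested, and in such bulk libraries fewer cells of a type and less RNA per cell cannot be told apart.

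Zfp773 was measured at 6.05 and 7.03 CPM (fragments scaled by library size alone) in the parental libraries and at 57.7 and 45.5 CPM in the BORG libraries. The BORG libraries both stood far above the parental ones, and the rise passed the test (edgeR adjusted p = 1.43e-04). The neighbouring member Zfp772, a KRAB gene, was at 3.03 and 2.81 CPM in the parental and 12.2 and 8.02 CPM in the BORG libraries. Again both BORG libraries were above both parental ones, and the log2 change was 1.77 ± 0.28 (edgeR adjusted p = 0.00382).

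Zfp52, a KRAB gene with 14 fingers, was the most abundant of the strong risers, at a mean of 30.6 FPKM. It was at 29.3 and 34.4 CPM in the parental and 155 and 107 CPM in the BORG libraries (edgeR adjusted p = 6.78e-04). The groups did not overlap, though the BORG libraries lay farther apart than the parental ones. Zfp395, a factor induced by low oxygen in human cells, was at 3.70 and 2.81 CPM against 9.85 and 11.8 CPM. It rose by 1.75 ± 0.24 on the log2 scale (edgeR adjusted p = 0.00235), with both BORG libraries above both parental ones.

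The other 6 of the 10 strongest risers were Zfp40, Zfp775, Zfp30, Zfp810, Zfp931 and Zfp9, with log2 changes from 1.51 to 1.68. Zfp30, a KRAB gene tied in mice to the recruitment of neutrophils into the airways, was at 5.42 and 5.25 CPM in the parental and 19.1 and 14.7 CPM in the BORG libraries. Zfp810 went from 5.67 and 6.54 CPM to 20.96 and 14.8 CPM, and Zfp9 from 11.3 and 15.5 CPM to 44.2 and 33.2 CPM. In each of the 10 risers the groups did not overlap, but the rule that picked these and the 10 strongest fallers required this. On log2(FPKM + 1), limma gave Zfp40 an adjusted p of 0.0777, so that its call rested on the fragments, and Zfp775 one of 0.0639 with 0.1 in place of 1.

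**Figure D2:**
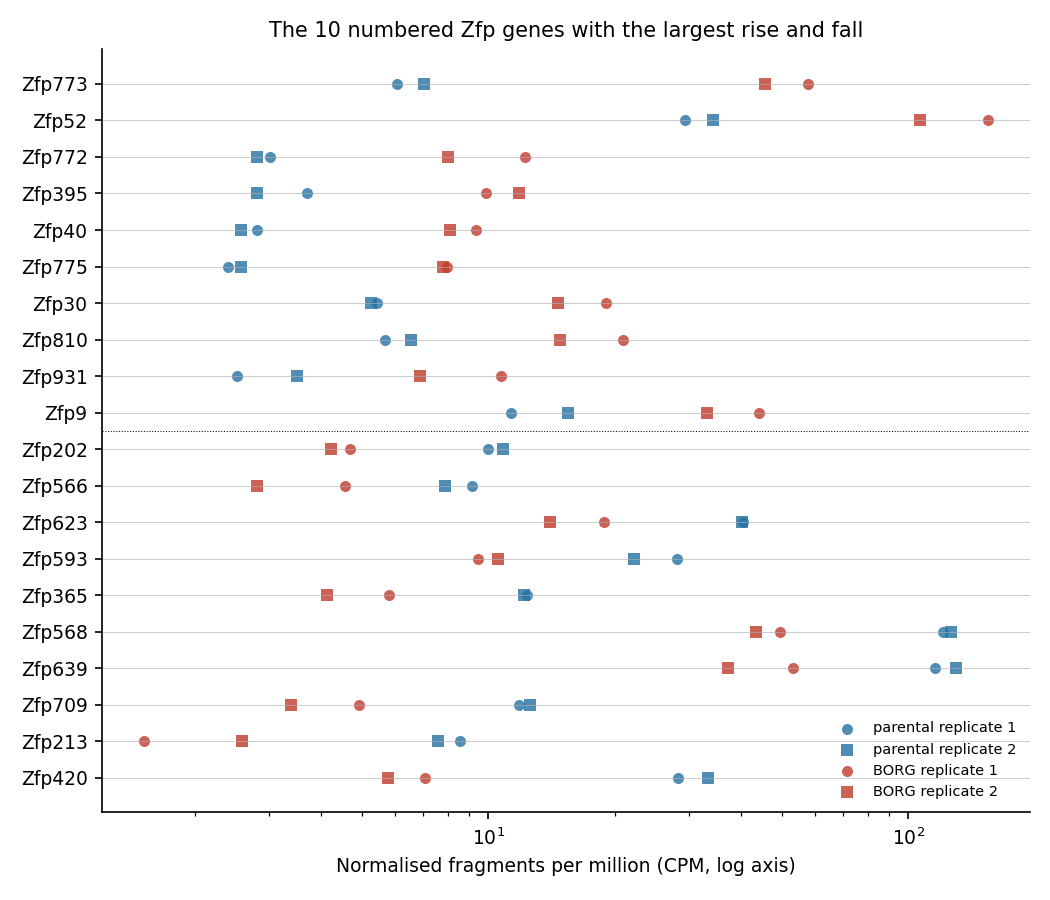
Level in CPM (fragments scaled by library size, log axis) of the 10 numbered Zfp genes with the largest rise (above the dotted line) and the 10 with the largest fall, one point per library. In all 20 genes both BORG libraries lie on one side of both parental libraries, as they do in all 95 called members. Zfp773 was at 6.05 and 7.03 CPM in the parental and 57.7 and 45.5 CPM in the BORG libraries.

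Zfp420, known as Apak, a repressor of p53 target genes, was at 28.2 and 33.4 CPM in the parental libraries and 7.07 and 5.76 CPM in the BORG libraries. Both BORG libraries were well below both parental ones (edgeR adjusted p = 3.50e-04). Zfp213 fell by 1.89 on the log2 scale, from 8.57 and 7.59 CPM to 1.52 and 2.59 CPM, and Zfp709 by 1.61, from 11.9 and 12.6 CPM to 4.92 and 3.39 CPM. Neither overlapped between groups, but Zfp709 did not pass limma's test on log2(FPKM + 1) (adjusted p = 0.119).

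Zfp639, known as Zasc1, which aids the transcription of retroviruses, was among the most abundant members at a mean of 38.7 FPKM. It was at 116 and 130 CPM in the parental and 53.0 and 37.2 CPM in the BORG libraries, a fall of 1.46 on the log2 scale. Zfp623 went from 40.3 and 40.1 CPM to 18.8 and 14.03 CPM, and Zfp202, a repressor of lipid metabolism genes in human cells, from 9.96 and 10.8 CPM to 4.67 and 4.23 CPM. In all 3 both BORG libraries lay below both parental ones. Zfp566 was at 9.12 and 7.89 CPM against 4.55 and 2.81 CPM, but 13.1% of its 100-base windows also occur in another gene, which leaves its count uncertain. The remaining 3 of the 10 strongest fallers, Zfp568, Zfp365 and Zfp593, are given with their roles below.

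Both groups of libraries were fully separated in CPM for 84 members above and 77 below the parental libraries. That is 33.9% and 31.0%, against 36.4% and 37.8% of all tested genes of at least 1 FPKM. In FPKM, 77 and 75 members did not overlap, against backgrounds of 31.1% and 34.3% of genes; the members' own shares were 31.0% and 30.2%. All 95 called members were among those separated in CPM, and each had the same direction in FPKM. On log2(FPKM + 1), limma called 25 members higher and 21 lower, against 11.6% and 14.5% of genes.

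The most abundant member was Zfp207, also called BuGZ, which binds microtubules and the spindle checkpoint protein Bub3. Zfp207 was at 76.7 and 89.9 FPKM in the parental and 70.6 and 82.3 FPKM in the BORG libraries, which overlapped (log2 change -0.04 ± 0.11, edgeR adjusted p = 0.819). After it came Zfp330 at a mean of 49.9 FPKM, Zfp91 at 42.6, Zfp639 at 38.7, Zfp655 at 36.2, Zfp740 at 35.9, Zfp131 at 33.5, Zfp52 at 30.6, Zfp148 at 29.98 and Zfp146 at 27.2. Of these 10, 5 fell, 1 rose and 4 did not pass the test, beside 24.0% lower and 21.3% higher of all genes of at least 1 FPKM. Of protein-coding genes in the FPKM range of the 62 most abundant members, 29.6% fell and 21.8% rose. Zfp146 fell by 0.92 on the log2 scale, from 77.2 and 91.1 CPM to 45.2 and 43.8 CPM. Zfp655 fell by 0.62, a call lost without parental replicate 2 (edgeR adjusted p = 0.0855).

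Falls were counted more often among the abundant members than among the scarce ones. Of the 62 members with the lowest mean FPKM, 12 rose and 6 fell, and of the next 62, 15 rose and 8 fell. Of the 62 above them 13 rose and 13 fell, and of the highest 62, 9 rose and 19 fell. Protein-coding genes within the same FPKM ranges had shares that fell of 19.5%, 21.5%, 24.3% and 29.6% from the lowest to the highest, and the members 9.68%, 12.9%, 20.97% and 30.6%. The share that rose was 14.5% of the highest 62 members, against 21.8% of protein-coding genes there. The members' median standard error was 0.284 in the lowest 62 and 0.149 in the highest, where smaller changes could pass. The part of the standard error in these shares was not tested. From the lowest to the highest 62, falls of at least 2-fold that passed numbered 4, 2, 3 and 6 (6.45%, 3.23%, 4.84% and 9.68%). Protein-coding genes in the same ranges had 14.5%, 12.5%, 8.89% and 10.0%. Such rises among the members numbered 10, 8, 3 and 3 (16.1%, 12.9%, 4.84% and 4.84%). Protein-coding genes had 14.8%, 13.3%, 9.39% and 6.28%. None of these differences was tested.

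**Figure D3:**
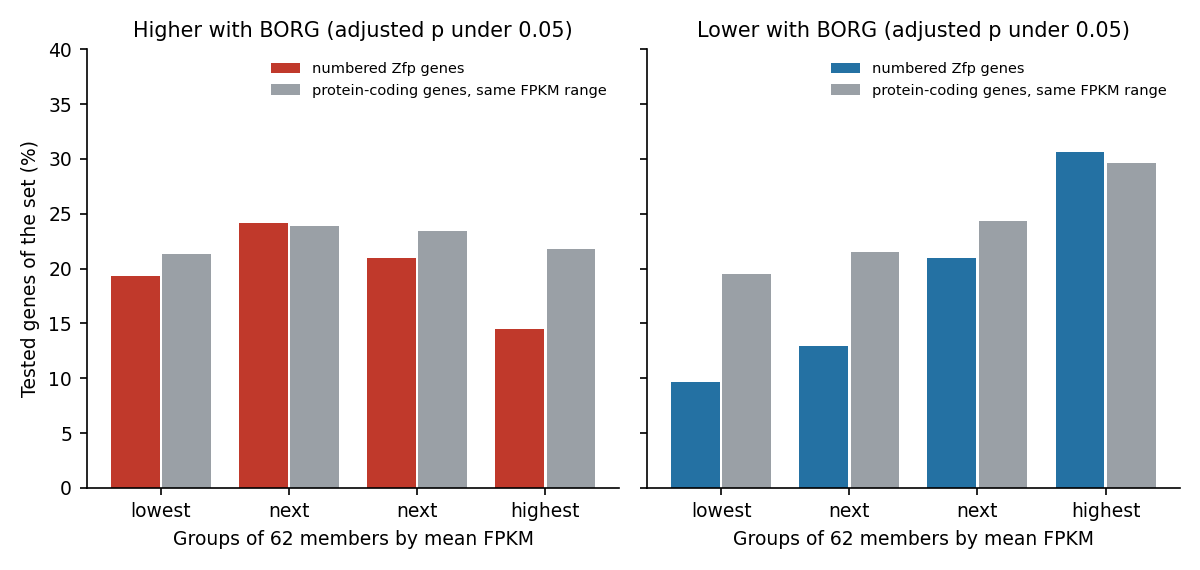
Share of tested genes that rose (left) and fell (right) in BORG-expressing cells, for the numbered Zfp genes in 4 groups of 62 by mean FPKM and for protein-coding genes within the same FPKM ranges. Among the members the share that fell runs from 9.68% in the lowest group to 30.6% in the highest.

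**Figure D4:**
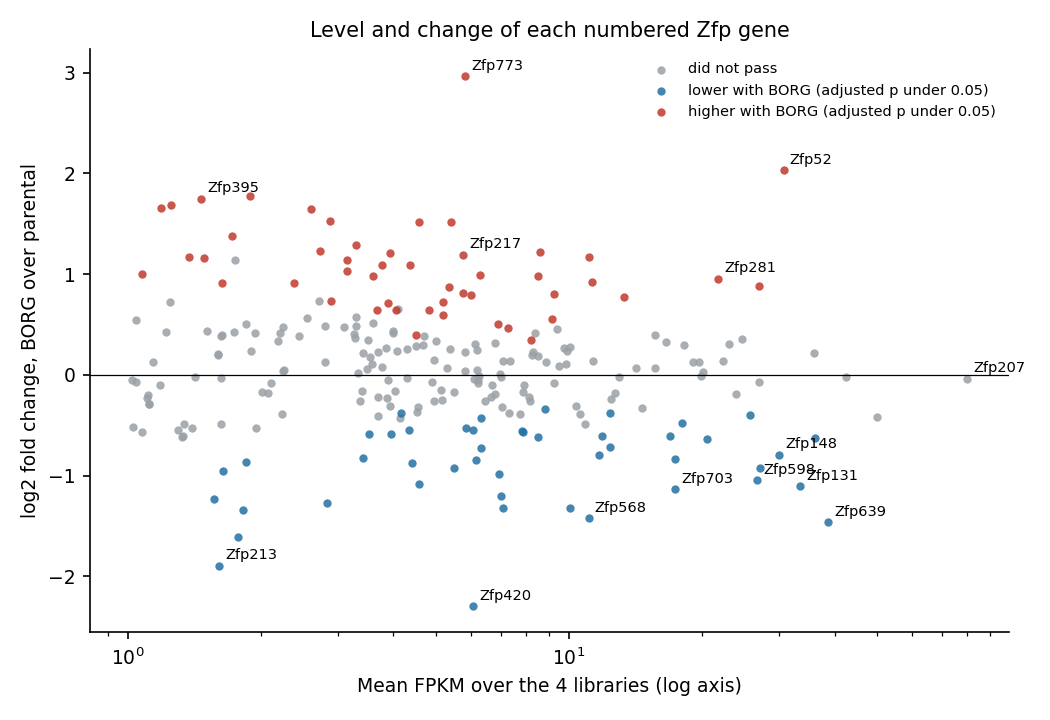
Mean FPKM over the 4 libraries (log axis) against the log2 fold change, BORG over parental, for each of the 248 members, coloured by the edgeR call. Zfp773 and Zfp52 stand above the rest and Zfp420 below, and Zfp207, the most abundant at 79.9 FPKM, lies near 0.

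The members were also divided by their protein. A KRAB box pattern was found in 103 of the 246 with a protein, which held a median of 12 fingers, and not in 143, with a median of 8; Zfp939 and Zfp125 are annotated as pseudogenes. The KRAB class was the scarcer, at a median of 3.92 against 6.07 FPKM. Of the KRAB class 18 rose and 13 fell (17.5% and 12.6%), and of the rest 31 rose and 32 fell (21.7% and 22.4%). Of all genes of at least 1 FPKM, 21.3% rose and 24.0% fell. Of protein-coding genes in the FPKM range of the lowest 62 members 19.5% fell, and in that of the highest 62, 29.6%. The part of level in the class shares was not tested. Falls of KRAB genes dropped to 7 without parental replicate 2, and the 2 classes had medians of 0.09 and 0.07 on the log2 scale. The pattern is strict and misses some KRAB boxes; with 1 position relaxed, 128 genes carried it, of which 24 rose and 16 fell. The difference between the classes was not tested.

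Among members known to silence retroelements or imprinted genes, 2 of 7 fell and none rose at an adjusted p under 0.05, beside 24.0% lower and 21.3% higher of all genes of at least 1 FPKM; so small a list is given by its members. Zfp568, which represses the placental promoter of Igf2 in mouse embryos, was at 121 and 126 CPM in the parental and 49.4 and 43.3 CPM in the BORG libraries. The replicates lay close together and the groups far apart, a fall of 1.42 on the log2 scale with a standard error of 0.12 (edgeR adjusted p = 3.67e-04). Zfp932, a repressor of endogenous retroviruses in mouse embryonic stem cells, was at 12.9 and 18.5 CPM against 7.07 and 6.67 CPM. Its fragments fell by 1.20 on the log2 scale, but its FPKM groups, 5.49 and 9.68 against 5.48 and 7.33, overlapped, with a limma adjusted p of 0.670, and 22.1% of its windows also occur in another gene. Zfp809, which blocks murine leukaemia virus, was at 9.5 and 11.1 CPM against 11.6 and 9.18 CPM (log2 change -0.01 ± 0.20), and Zfp445, a keeper of imprints, had a log2 change of 0.13 ± 0.12; neither passed the test. The log2 changes of Zfp266, Zfp689 and Zfp961 lay between -0.55 and 0.22, and none of them passed.

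Of 16 promoter-binding and chromatin factors, 3 rose and 8 fell (18.8% and 50.0%), beside 21.3% and 24.0% of all genes of at least 1 FPKM. Zfp281, a GC-box factor known from embryonic stem cells, was at 75.7 and 82.5 CPM in the parental and 166 and 141 CPM in the BORG libraries (log2 change 0.95 ± 0.13, edgeR adjusted p = 0.00203). Zfp131, a BTB-domain zinc finger protein, was at 138 and 167 CPM against 78.8 and 64.0 CPM, and Zfp148, also called ZBP-89, at 284 and 314 CPM against 184 and 162 CPM. The groups of all 3 genes were separate, and the 2 falls came to 1.10 and 0.79 on the log2 scale. Zfp24, required for myelination in mice, fell by 0.83.

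The other changes among the promoter and chromatin factors were smaller. Zfp219 rose by 0.99 and Zfp687 by 0.56 on the log2 scale, and Zfp746 fell by 0.57, Zfp384 by 0.56, Zfp827 by 0.53, Zfp592 by 0.43 and Zfp410 by 0.38. Each of these 7 calls was lost in at least one fit without a single library. Zfp219 had an edgeR adjusted p of 0.0541 without BORG replicate 2 and Zfp687 one of 0.223 without parental replicate 2 and 0.0629 without BORG replicate 2. Zfp746 and Zfp827 were lost without parental replicate 1 (edgeR adjusted p = 0.0504 and 0.0548) and without BORG replicate 1 (0.0608 and 0.0610). Zfp384 and Zfp592 were lost without parental replicate 1 (0.0731 and 0.136) and without parental replicate 2 (0.0501 and 0.0634), and Zfp410 without any one of the 4 (0.0609 to 0.229).

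Zfp410 is known to activate Chd4, and its own values were 43.9 and 45.4 CPM in the parental and 35.1 and 33.7 CPM in the BORG libraries. Chd4, named after its values were seen, rose, from 346 and 367 CPM to 507 and 488 CPM (log2 change 0.48 ± 0.10, edgeR adjusted p = 0.00914; 0.173 and 0.0644 without parental replicates 1 and 2, and 0.143 by limma on log2(FPKM + 1)). Zfp143, the mouse form of the human factor ZNF143 that binds sites of the kind ACTACANNNNCCAG, was at 23.0 and 24.1 CPM against 22.9 and 23.0 CPM and did not pass (log2 change -0.04 ± 0.13). Zfp263, Zfp335, Zfp532 and Zfp644 did not pass either, with log2 changes from 0.01 to 0.35. In human cells the products of ZNF592, ZNF687 and ZNF532 share a complex; the mouse genes fell, rose and did not pass, respectively.

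Of 6 regulators known from mammary epithelium or breast cancer, 1 rose and 4 fell, beside 21.3% and 24.0% of all genes of at least 1 FPKM. Zfp217, whose human form is amplified in breast cancer, was at 25.4 and 22.2 CPM in the parental and 57.7 and 51.2 CPM in the BORG libraries. Both BORG libraries lay above both parental ones, a rise of 1.19 ± 0.13 on the log2 scale (edgeR adjusted p = 0.00107). Zfp703, whose human form is an oncogene of luminal breast tumours, was at 84.6 and 52.9 CPM against 19.9 and 40.8 CPM. The groups did not overlap but each was widely spread, so the fall of 1.13 had a standard error of 0.35 (edgeR adjusted p = 0.0435; 0.10 with DESeq2). Zfp365, whose human form is a p53 target that protects the genome, was at 12.4 and 12.1 CPM against 5.81 and 4.12 CPM and fell by 1.35.

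Zfp503, a close relative of Zfp703, fell by 0.64, with an edgeR adjusted p of 0.0465 that became 0.129 without parental replicate 1 and 0.0947 without BORG replicate 1. Zfp462, a heterochromatin regulator of stem cells, fell by 0.38, with an edgeR adjusted p of 0.0498 that rose to 0.157, 0.137 and 0.153 without parental replicate 1, parental replicate 2 and BORG replicate 1. Zfp704, with a log2 change of 0.08 ± 0.12, did not pass. Of the regulators of fat cells, Zfp395 rose, as above, and Zfp516, which activates Ucp1 in brown fat, was at 153 and 133 CPM against 162 and 189 CPM and did not pass (log2 change 0.30 ± 0.13).

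None of 10 members that act on RNA, the ribosome or the spindle rose at an adjusted p under 0.05, and 4 fell, beside 21.3% and 24.0% of all genes of at least 1 FPKM. Zfp598, the ubiquitin ligase that marks collided ribosomes, was at 156 and 123 CPM in the parental and 64.8 and 70.2 CPM in the BORG libraries. The groups were separate and the fall came to 1.05 on the log2 scale (edgeR adjusted p = 0.00250), but limma on log2(FPKM + 1) gave an adjusted p of 0.0840. Zfp593, whose yeast relative Bud20 acts in the export of the large ribosomal subunit, was at 28.1 and 22.3 CPM against 9.47 and 10.6 CPM, a fall of 1.32. Zfp622, whose yeast relative Rei1 matures that subunit in the cytoplasm, went from 65.2 and 58.6 CPM to 38.1 and 42.8 CPM, a fall of 0.61.

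Zfp346, which binds double-stranded RNA, fell by 0.93, from 26.4 and 26.1 CPM to 12.9 and 14.6 CPM with no overlap. The other 6, Zfp207, Zfp871, Zfp106, Zfp326, Zfp638 and Zfp697, had log2 changes from -0.39 to 0.30 and did not pass. Of the ligases beside Zfp598, neither Zfp91, a ubiquitin ligase, nor Zfp451, a SUMO ligase, passed, with log2 changes of -0.02 ± 0.14 and 0.07 ± 0.16.

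Of the members, 89 lay in 12 clusters of at least 4 members whose starts followed each other within 250 kb, and 62 members were on chromosome 7. Of the 77 adjacent pairs within clusters, both genes were called in 6, of which 3 pairs moved the same way and 3 opposite ways. The cluster of 12 members at chr7:29768552-30169750 held 2 genes that rose and 4 that fell. There Zfp30 rose by 1.65 and Zfp420, next but one to it among the members, fell by 2.29 on the log2 scale, while Zfp790 between them did not pass. Zfp568, Zfp566 and Zfp146 also fell, and Zfp260 rose by 0.88 ± 0.19, from 73.9 and 94.7 CPM to 180 and 131 CPM.

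The cluster of 14 members at chr17:21423227-22456689, all of the KRAB class, held a run of 3 adjacent members that rose. They were Zfp53 at 1.17 ± 0.15, Zfp52 at 2.03 ± 0.20 and Zfp948 at 0.77 ± 0.16 on the log2 scale. Zfp53 was at 15.7 and 17.7 CPM in the parental and 40.5 and 34.7 CPM in the BORG libraries, and Zfp948 at 29.0 and 36.0 CPM against 60.7 and 51.1 CPM, with no overlap in either. In the same cluster Zfp994 fell by 0.86, from 12.7 and 13.7 CPM to 8.46 and 6.34 CPM, and the other 10 members did not pass. Zfp948, Zfp994 and Zfp260 were named after their values were seen, and limma on log2(FPKM + 1) gave them adjusted p of 0.135, 0.0811 and 0.0771; edgeR gave Zfp994 0.0532 without BORG replicate 2. None of the 7 members at chr7:24081924-24515682, the 5 at chr7:4915217-5053723 or the 5 at chr9:20345136-20605409 passed the test, with log2 changes of -0.62 to 0.13, 0.42 to 1.14 and -0.24 to 0.42.

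**Figure D5:**
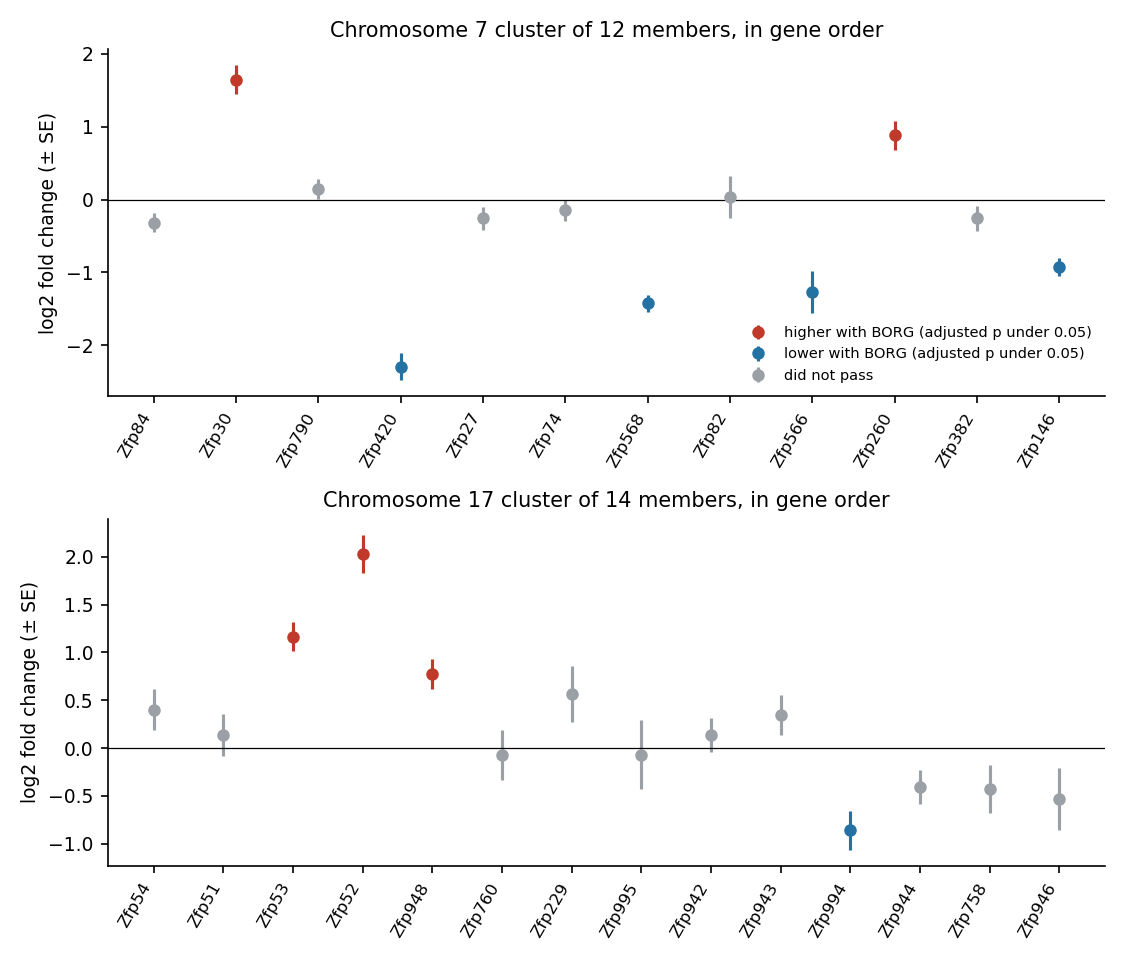
Log2 fold change, BORG over parental, with its standard error, for the members of 2 clusters in gene order along the chromosome, coloured by the edgeR call. In the chromosome 7 cluster Zfp30 rose by 1.65 and Zfp420 fell by 2.29; in the chromosome 17 cluster the adjacent members Zfp53, Zfp52 and Zfp948 rose.

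Each of the remaining 7 clusters held at least 1 member that passed the test. At chr13:67121660-67755228, 2 members rose and 1 fell. Zfp87 there rose by 0.79 on the log2 scale (edgeR adjusted p = 0.0296), a call lost by limma on log2(FPKM + 1). The 10 members at chr13:67121660-67755228 ranged from -0.57 to 1.16 on the log2 scale, the highest being Zfp85, whose call (edgeR adjusted p = 0.0424) was lost without either parental library or BORG replicate 1 (0.0571 to 0.163). The 8 members at chr7:127233061-127615797 ranged from -0.55 to 1.03, led by Zfp688, lost without either parental library or BORG replicate 2 (edgeR adjusted p = 0.0710 to 0.220). The 5 at chr7:27731389-28014115 ranged from -0.83 to 1.23. Zfp974 rose by 1.23 and Zfp60 by 0.98, with limma adjusted p of 0.0594 and 0.0678 on log2(FPKM + 1), while Zfp850, next to Zfp974 and named after its values were seen, fell by 0.83 (edgeR adjusted p = 0.0189; limma adjusted p = 0.0875 on log2(FPKM + 1)). In the 4 at chr9:22055411-22307648 Zfp810 alone passed, at 1.53 ± 0.22. The 8 at chr17:32765496-33394641 ranged from -0.49 to 0.92, where Zfp799 alone passed, a call lost without parental replicate 1 (edgeR adjusted p = 0.0834). The 5 at chr8:69610857-69791178 ranged from -0.62 to 0.73, and Zfp868 alone passed; it fell by 0.62, a call lost without parental replicate 2 or BORG replicate 1 (edgeR adjusted p = 0.162 and 0.0569). The 6 at chr6:47835661-48086593 ranged from -0.85 to 0.40, the lowest being Zfp777, to which limma on log2(FPKM + 1) gave an adjusted p of 0.122.

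RefSeq promoter windows were matched for 205 members, some with several starts. The motif ACTACANNNNCCAG was read from the promoters of Zfp773, Zfp772 and Zfp420 after they had been seen, as the stretch of 14 bases most alike in them with its middle left free, so its counts are a description of these genes and no independent observation. It occurred in 1.29% of all 32851 RefSeq windows, and at least 1 window held it in 3.57% of 8159 expressed protein-coding genes and in 10.7% of the members. Among members with a window, it was found for 10 of 43 that rose (23.3%), 2 of 33 that fell (6.06%) and 10 of 129 that did not pass (7.75%). The 2 that fell were Zfp420 and Zfp566, and those that rose included Zfp773, Zfp772, Zfp60, Zfp219 and Zfp85. Over all 291 expressed protein-coding genes with the motif, 19.9% rose and 28.9% fell, against 22.7% and 26.8% of all protein-coding genes of at least 1 FPKM. The 3 genes from which it was read are among these counts. Members with the motif that share a cluster on chromosome 7 may not be independent of each other. In one such cluster lay Zfp180, Zfp111, Zfp109 and Zfp93, and in another Zfp84, Zfp790, Zfp420, Zfp74, Zfp566 and Zfp260. Zfp772 and Zfp85 reached the FPKM limit only through the BORG libraries.

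The other motifs were compared with the windows of expressed protein-coding genes and with all RefSeq windows. CCAAT was found in 46.4% of the members' windows, against 37.7% and 37.4%, and GGGCGG in 46.0%, against 65.0% and 35.7%. CCGGAAG was found in 20.4%, against 19.1% and 8.86%, TATAAA in 5.6%, against 6.71% and 13.6%, and CACGTG in 6.4%, against 10.3% and 7.15%. These differences were not tested. A match of letters is not a site of binding, and windows of one gene overlap.

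The partners of KRAB proteins were read from a list of 29 cofactors and heterochromatin genes, of which 28 were tested, 9 rose and 6 fell (32.1% and 21.4%), beside 21.3% and 24.0% of all genes of at least 1 FPKM. Trim28, the corepressor itself, was at 199 and 191 CPM in the parental and 162 and 197 CPM in the BORG libraries, which overlapped (log2 change -0.12 ± 0.12, edgeR adjusted p = 0.470). Atf7ip, which stabilises the histone methyltransferase Setdb1, rose by 1.27 ± 0.10, from 47.4 and 47.9 CPM to 114 and 116 CPM (edgeR adjusted p = 3.46e-04). Pphln1, a subunit of the HUSH silencing complex, fell by 1.20, from 109 and 115 CPM to 51.3 and 46.2 CPM (edgeR adjusted p = 5.79e-04). Suv39h2, a histone methyltransferase, fell by 1.19, and Dnmt3b, a DNA methyltransferase, fell by 2.38 from a low level of 7.61 and 7.59 CPM to 0.758 and 1.86 CPM. The calls on the list numbered 8 without parental replicate 1 and 8 without parental replicate 2, against 15 with all libraries.

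Other C2H2 families of at least 1 FPKM were read beside the numbered genes. Of 35 Zbtb genes 8 rose and 6 fell, of 8 Zscan genes 1 rose and 1 fell, of 8 Zkscan genes 1 rose and 1 fell, and of 22 Zfp genes with a letter in the symbol 3 rose and 4 fell. In all 25 of 73 were called, beside 45.3% of all genes of at least 1 FPKM. These calls became 15 without parental replicate 1 and 15 without parental replicate 2.

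Fragments of similar genes can be divided wrongly in counting. Of the members, 20 shared at least 10% of their 100-base windows with another gene, most of all Zfp935 at 99.3% and Zfp433 at 86.7%, and 188 shared none. Among those 20, 2 rose and 2 fell, and among the other 228, 47 rose and 44 fell. A gene on the opposite strand overlapped 85 members and one on the same strand 46. Of the 140 with no overlapping gene, 29 rose and 26 fell (20.7% and 18.6%).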

How the data were processed

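RNA from 4 libraries of D2.OR cells was analysed, 2 parental and 2 BORG-expressing. Per the submitters' processing notes, the authors' tools were TopHat, Cufflinks, FastQC and Trim Galore, without versions, and they named the builds GRCm38, mm10 and mm8. Whether fragments were counted by strand, and with which annotation, is not given in the sources used here; reads of opposite strands may be mixed. Per the file headers, the deposited table gives estimated counts of fragments per gene and FPKM. The FPKM values were normalised by the authors, and a further 2 columns of scaled fragments were not used. The table names the groups Empty and BORG with replicates 0 and 1, read as parental and BORG replicates 1 and 2.

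Identifiers were matched without their version to GENCODE M21, which gave a symbol to 48051 of 48432. The estimated counts were rounded and fitted over all genes with edgeR 4.0.16 (R 4.3.3): TMM factors, filterByExpr, quasi-likelihood test on group alone, two-sided, with Benjamini-Hochberg adjustment over 15116 genes and a threshold of 0.05. Of the 12747 genes of at least 1 FPKM, 423 were not tested. CPM values are scaled by the TMM factors, and fold changes carry edgeR's default prior count. A prior count of 2 entered only the log2 CPM used for quantile normalisation and for the correlation of same-numbered libraries. Alternatives used limma 3.58.1 on log2(FPKM + 1) or log2(FPKM + 0.1), DESeq2 1.42.0, other normalisations, other filters, gene-wise offsets for GC content and length with mgcv 1.9.3, and each library left out. On the log2(FPKM + 1) scale the change of low genes is understated. The script was tested on simulated data.

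Fragments assigned to genes were 24176438 and 30322679 in the parental and 7900767 and 27131662 in the BORG libraries; low members are least precise in the shallowest. With 2 libraries against 2, an exact permutation of one value cannot go below a two-sided p of 0.333, so the fit across all genes was used.

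KRAB boxes and fingers were found by pattern in proteins translated from the GENCODE M21 coding sequences; RefSeq proteins, which the design named, were not used here. Shared windows count the 100-base stretches of a gene's exons that occur in another gene. The members and lists were chosen with earlier results of these data known. Members were named if among the 10 highest or lowest changes that passed with separate groups, the 10 most abundant, in a role list or at the FPKM limit. Of the 2 largest changes of each cluster, those that passed the test were named, and the others lie in the ranges given. Trim28 and the 4 cofactors with the smallest p were named as well. Members of a role list or cluster with small changes are given by range and count.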

Additional observations from a re-analysis of the deposited data

How the results depend on the processing

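The members higher and lower, 49 and 46, came to 42 and 44 with DESeq2, beside 18.1% and 22.9% of all genes of at least 1 FPKM. With upper quartile factors they came to 54 and 38, beside 24.1% and 21.7%. By limma on log2(FPKM + 1) or on log2(FPKM + 0.1) they came to 25 and 21. There 11.6% or 11.8% of all genes of at least 1 FPKM were higher and 14.5% or 14.7% lower. Leaving out a library gave 34 to 51 higher and 31 to 45 lower. By these limma fits KRAB genes higher were 10 and 11 and lower 2 and 2, genes without the pattern 15 and 14 and 18 and 18, cofactors called 5 and 5, and other C2H2 genes called 9 and 10.

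Same-numbered libraries tended to deviate in opposite directions (correlation of deviations -0.44). The labels do not say whether any libraries were handled together, and this was not tested. With a replicate block, 33 members were higher and 28 lower, beside 14.3% and 16.5% of all genes of at least 1 FPKM. KRAB genes lower were then 7, genes without the pattern 17 higher and 20 lower, cofactors called 7 and other C2H2 genes called 10. A crossed replicate block, chosen after seeing the data, gave 81 higher and 66 lower, with 32.9% of all genes higher and 34.9% lower. KRAB genes were then 32 higher and 23 lower and genes without the pattern 49 higher, with 23 cofactors and 48 other C2H2 genes called.

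Over fits leaving out 1 library, the members' median log2 change ran from -0.10 to 0.14, KRAB genes lower from 7 to 13, cofactors called from 8 to 14 and other C2H2 genes called from 15 to 26. The cause of these differences was not tested. Of the results for single named genes under these alternatives, 1175 stayed called or stayed not called, 115 lost the call and 38 gained one. While called, 0 changed sign, and the signs of uncalled changes were not followed. Depth limits the members of few fragments, above all in BORG replicate 1.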
